A study of Saccharomyces cerevisiae with 17 samples.

Results

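PAU15 (YIR041W), PAU17 (YLL025W), PAU19 (YMR325W) and PAU23 (YLR037C, also named DAN2) belong to the seripauperins of Saccharomyces cerevisiae, a family of 24 genes in the R64 reference. They were chosen from the signals of these same arrays over all 8 sample groups, with earlier results in view, so their levels and differences are described here without a test. Each has a probe set of its own, and PAU19 also shares a probe set with PAU21 and PAU22, which gives 5 probe sets of the 9335 on the array and 4 of the 5656 genes that could be named. Another 6 seripauperins (PAU3, PAU4, PAU7, PAU10, PAU13 and PAU16) have their own probe set, and 12 probe sets stand for several PAU genes at once. All 10 single-gene sets are of the type that the array's maker marked as able to bind a family of transcripts. Each value is therefore the signal of a probe set, and transcripts of near-identical copies cannot be told apart in it.

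Seripauperins are small proteins named for being poor in serine, related to the serine-rich Tir, Dan and Tip1 mannoproteins of the cell wall. Most PAU genes lie near chromosome ends, and the family is known for transcription in cells grown without oxygen, where the cell wall is remodelled and sterols must be taken up. Repressors such as Rox1 and Mot3 hold many anaerobic cell wall genes off in air. Upc2, a sterol-sensing activator, and Sut1, which promotes sterol uptake, act on genes of the same programme. Some PAU and TIR genes have also been described as cold-responsive.

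All arrays came from the haploid strain CEN.PK113-7D (MATa MAL2-8C SUC2), grown without oxygen under glucose limitation in chemostats at a dilution rate of 0.03 per h, so no group had air or a genetic change. Cultures were held at a constant 30 °C (SS_30) or a constant 12 °C (SS_12), with 2 independent cultures each, or went through a sine-shaped temperature cycle of 24 h. In the cycle, 2 cultures were sampled over the fifth and the sixth round at 30 °C (DTC_30, hour 0), 21 °C while cooling (DTC_21_decreasing, hour 6), 14.6 °C (DTC_14.6, hour 9), 12 °C (DTC_12, hour 12), 21 °C while warming (DTC_21_increasing, hour 18) and 27.4 °C (DTC_27.4, hour 21). The series asked how far the response to the cycle follows from steady states. The labels do not tie a cycle array to one of the 2 cultures, so limma's p-values treat arrays of the same cultures as independent.

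Signal is the deposited probe set intensity, scaled per array, and log2 differences ± SE come from a limma fit of 8 groups with 2 arrays each over 5656 genes. An extra array at 27.4 °C, an analytical duplicate, stayed out of the fit. Replicate arrays correlated at 0.956 to 0.984 over all genes, and 5305 to 5395 genes per array lay above a background signal of 10.5. The number of arrays limits the precision. The 7 genes listed as markers of anaerobic growth gave a summed signal of 10936 to 15427 on the 16 arrays. OLE1, ERG11 and ANB1 made up most of it, while AAC3 gave 37.2 to 344.2 and COX5B 79.8 to 365.7. With no array from air to compare, the sum does not show the anaerobic state. The strain is MATa, and the 5 a-specific genes summed to between 8615 and 22098. The 3 alpha-specific genes, which such a strain should not use, summed to 2735.4 and 2764.4 on the SS_12 arrays and to 263.9 and 347.7 on the SS_30 arrays. In the cycle their sum was also highest at 12 °C (1631.0 and 2130.4, against 274.5 and 351.2 at 30 °C). MF(ALPHA)1 made up most of these sums, with 1581.9 and 2068.4 at the cycle's 12 °C. STE3 was lower there (36.0 and 46.6) than at the cycle's 30 °C (58.6 and 112.6). MF(ALPHA)2, near the background signal, gave 13.1 and 15.4 at 12 °C and 17.7 and 22.4 at 14.6 °C. The part of these alpha-specific signals in the PAU values was not tested.

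At steady state the signal of all 4 PAU genes was lower at 12 °C than at 30 °C, by 3.03-fold to 4.05-fold. Within the cycle PAU15 and PAU19 were higher at 12 °C than at 30 °C, PAU17 was slightly higher, and PAU23 did not separate. At 30 °C itself, all 4 were lower in the cycling cultures than in the cultures kept at that temperature. RNA came from whole cultures, so fewer expressing cells and less RNA per cell cannot be told apart.

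PAU15 gave a signal of 293.9 and 429.0 on the arrays at constant 30 °C and of 96.8 and 141.5 at constant 12 °C. In the cycle it gave 124.3 and 97.6 at 30 °C, 138.7 and 117.0 at 21 °C while cooling, and 232.4 and 332.9 at 14.6 °C. It then gave 314.0 and 285.2 at 12 °C, 289.3 and 251.1 at 21 °C while warming, and 152.0 and 180.4 at 27.4 °C. Among constant 30 °C, 14.6 °C, 12 °C and the warming 21 °C point, neighbours in rank overlapped, while both constant 30 °C arrays lay above both warming 21 °C arrays. All of them lay above the 27.4 °C point, which in turn lay above the cooling 21 °C point, constant 12 °C and the cycle's 30 °C point. Between the highest and the lowest group mean PAU15 spanned 3.22-fold.

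PAU19 had the same course with a peak on the warming side. Its signal was 329.8 and 445.5 at constant 30 °C and 100.7 and 153.1 at constant 12 °C. In the cycle it was 144.2 and 135.9 at 30 °C, 189.8 and 165.5 at 21 °C while cooling, and 257.7 and 453.1 at 14.6 °C. It was 281.3 and 306.7 at 12 °C, 353.9 and 449.9 at 21 °C while warming, and 188.4 and 178.6 at 27.4 °C. Of the 4 highest groups (warming 21 °C, constant 30 °C, 14.6 °C and 12 °C, in that order) neighbours overlapped, but both 12 °C arrays lay below both arrays of warming 21 °C and of constant 30 °C. None of the 4 overlapped with the 4 others. The probe set shared by PAU19, PAU21 and PAU22 was dim, at 13.8 to 43.8 over the 16 arrays. It was lowest at constant 12 °C on average (13.8 and 26.7) and highest at 12 °C in the cycle (39.4 and 43.8), as the PAU19 set was higher in the second of these groups than in the first.

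PAU17 was highest at constant 30 °C, with 282.2 and 425.9, and no other group overlapped with it. Constant 12 °C gave 97.4 and 133.8. The cycle gave 110.8 and 97.1 at 30 °C, 134.6 and 123.2 at 21 °C while cooling, 142.2 and 200.4 at 14.6 °C, 147.4 and 142.9 at 12 °C, 182.7 and 241.6 at 21 °C while warming, and 121.2 and 83.5 at 27.4 °C. No point of the cycle reached the level of steady warmth, and the cycle as a whole spanned 2.09-fold in group means, the smallest range of the 4 genes. The next 3 groups (warming 21 °C, 14.6 °C and 12 °C) overlapped with their neighbours among themselves, and all of their arrays lay above the 4 lowest groups.

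PAU23 gave 937.6 and 1492.7 at constant 30 °C and 233.0 and 365.9 at constant 12 °C, which were its highest and its lowest group. In the cycle it gave 417.8 and 444.6 at 30 °C, 628.1 and 515.2 at 21 °C while cooling, and 596.0 and 990.5 at 14.6 °C. It gave 440.8 and 392.6 at 12 °C, 630.8 and 1094.3 at 21 °C while warming, and 366.0 and 368.4 at 27.4 °C. Of the 4, only for this gene did the 2 arrays at 12 °C lie below every array at 14.6 °C and at both 21 °C points. The means of PAU17 and PAU19 also fell from 14.6 °C to 12 °C, by 0.22 each on the log2 scale, with overlapping arrays. Both then rose to the warming 21 °C point. PAU3, PAU7 and PAU16 had the same course in their means (−0.40, −0.86 and −0.75 from 14.6 °C to 12 °C), whereas PAU4, PAU10 and PAU13 were higher at 12 °C. The extra array at 27.4 °C read 136.4 for PAU15, 125.7 for PAU17, 158.6 for PAU19 and 295.2 for PAU23.

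**Figure D1:**
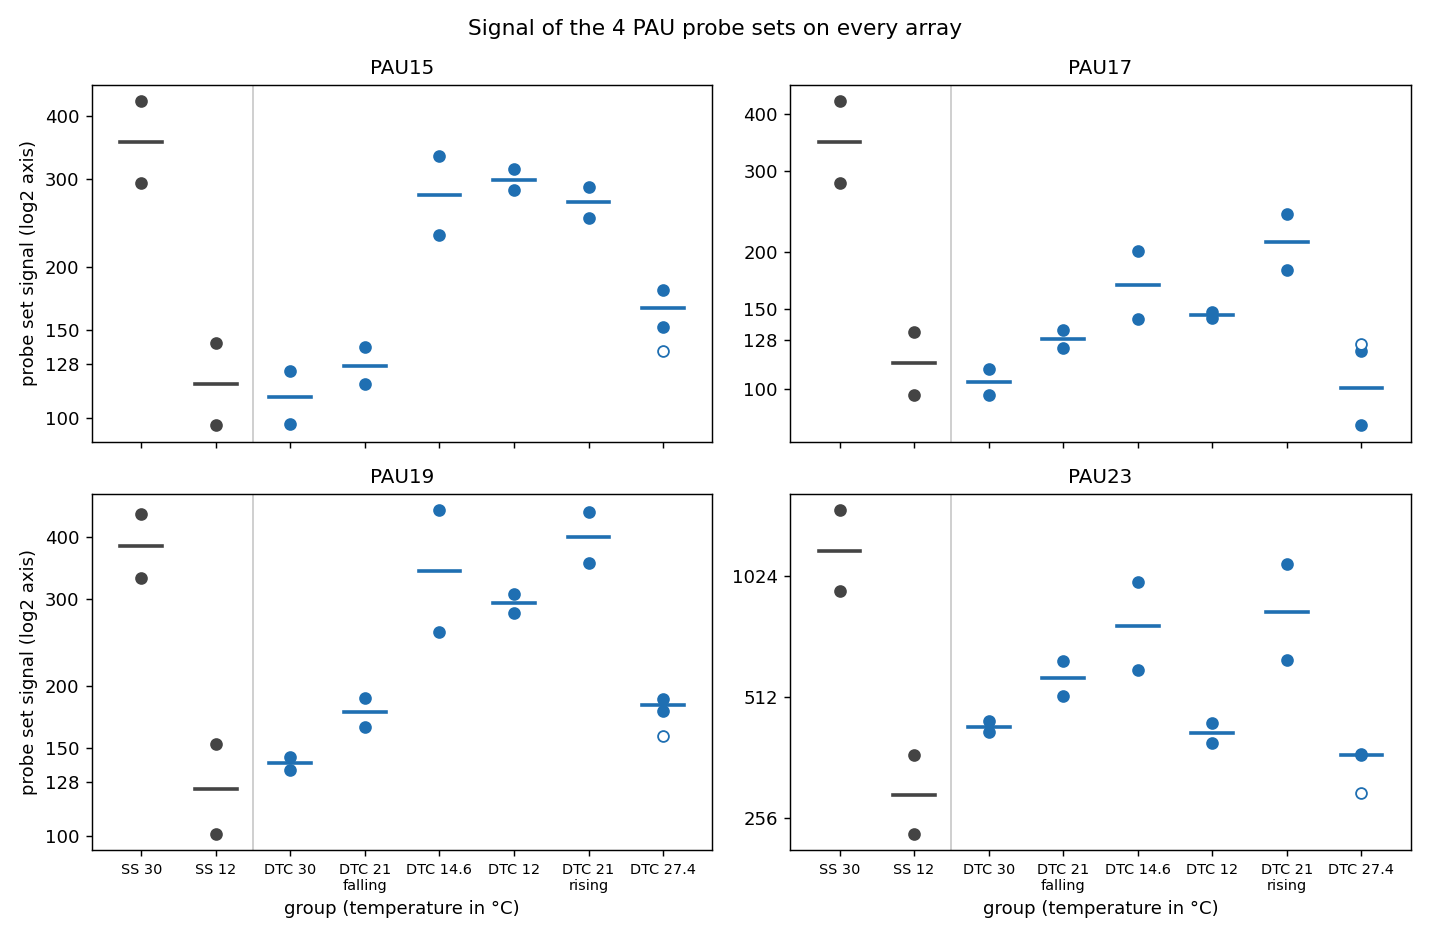
Signal of the PAU15, PAU17, PAU19 and PAU23 probe sets (log2 axis, a separate range for each gene) in the 8 groups, constant temperature in grey and the temperature cycle in blue. Filled points are arrays, bars are the mean of the log2 values of 2 arrays, and the open point is the extra array at 27.4 °C. In every panel the constant 30 °C arrays lie above the constant 12 °C arrays, and the cycle's 30 °C arrays lie below those of constant 30 °C.

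Expressed as log2 differences, constant 12 °C minus constant 30 °C was −1.60 ± 0.27 (SE) for PAU15, −1.60 ± 0.28 for PAU17, −1.63 ± 0.29 for PAU19 and −2.02 ± 0.34 for PAU23. The median of the 4 was −1.61, where the median over all genes was −0.01. The arrays of both groups did not overlap for 4 of 4, which was also true, in the lower direction, of 32.9% of all genes. These values helped to choose the genes, and nothing is read from that share. The 4 probe sets lay close together in this contrast, with 3 of the 4 differences within 0.03 of each other.

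They differed more in the cycle. From its 30 °C to its 12 °C point, PAU15 was higher by 1.44 ± 0.27 and PAU19 by 1.07 ± 0.29 on the log2 scale. PAU17 was higher by 0.48 ± 0.28, less than 2 times its SE. PAU23 stood at −0.05 ± 0.34, and its arrays overlapped. The median of the 4 was 0.78 against 0.05 for all genes, and 3 of 4 had arrays that did not overlap, as had 31.9% of all genes in the higher direction.

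At 30 °C, cycling cultures minus constant cultures gave −1.69 ± 0.27 for PAU15, −1.74 ± 0.28 for PAU17, −1.45 ± 0.29 for PAU19 and −1.46 ± 0.34 for PAU23. All 4 had arrays that did not overlap in this direction, as had 19.2% of all genes. At 12 °C the sign was the opposite, with cycling minus constant cultures at 1.35 ± 0.27 for PAU15, 1.24 ± 0.29 for PAU19, 0.51 ± 0.34 for PAU23 and 0.35 ± 0.28 for PAU17. Again 4 of 4 had arrays that did not overlap, beside 30.3% of all genes in the higher direction. The medians of the 4 were −1.57 and 0.88, and those of all genes −0.04 and 0.01. These contrasts share their SS_30, SS_12, DTC_30 and DTC_12 arrays with the earlier ones, so they are not further observations of the same thing.

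The cycle's 12 °C to 30 °C difference minus the steady-state one was 3.04 ± 0.39 for PAU15, 2.70 ± 0.41 for PAU19, 2.09 ± 0.40 for PAU17 and 1.97 ± 0.48 for PAU23 on the log2 scale. PAU15, PAU17 and PAU19 had opposite signs in the steady state and in the cycle on every array, while PAU23 was lower in the steady state only. The median of the 4 was 2.39, where that of all genes was 0.08.

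**Figure D2:**
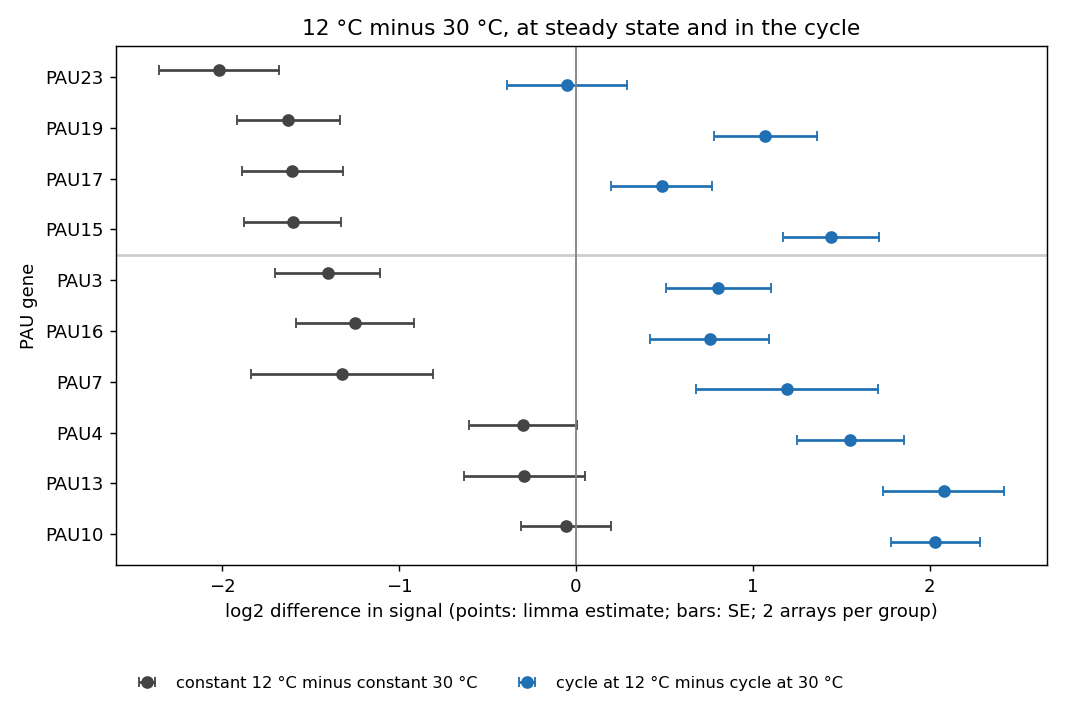
Log2 difference in signal between 12 °C and 30 °C for the 10 PAU genes with their own probe set, in constant cultures (grey) and in the cycle (blue), with limma's SE from 2 arrays per group. The 4 described genes stand above the horizontal line. All 10 grey points lie at or below 0, and 9 of the 10 blue points lie above it, PAU23 being the exception.

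The signal also differed between both 21 °C points. While warming, the signal was higher than while cooling by 1.17 ± 0.29 for PAU19, 1.08 ± 0.27 for PAU15, 0.71 ± 0.28 for PAU17 and 0.55 ± 0.34 for PAU23 on the log2 scale (median 0.89, all genes −0.04). Step by step through the cycle, the 4 genes differed by 0.21 to 0.40 from 30 °C to the cooling 21 °C point and by 0.39 to 1.13 from there to 14.6 °C. From 14.6 °C to 12 °C the steps ran from −0.89 (PAU23) to 0.11 (PAU15). From 12 °C to the warming 21 °C point they ran from −0.15 (PAU15) to 0.998 (PAU23). PAU15 thus kept a plateau through the cold, where PAU23 dipped and returned. From the warming 21 °C point to 27.4 °C all 4 were lower, by −1.18 to −0.70.

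The 6 other seripauperins were measured by the same kind of probe set and were not among the 4 chosen genes. Their sets share family-type probes with those of the 4 and can bind some of the same transcripts. The family and its tests were also chosen with earlier results of these data known. The p-values of the 6 are therefore not independent support for the pattern of the 4. PAU3 and PAU16 fell from constant 30 °C to constant 12 °C, by 1.40 (limma adjusted p = 0.00634) and by 1.25 (adjusted p = 0.0203) on the log2 scale. PAU3 gave 372.6 and 538.1 at constant 30 °C and 138.9 and 206.5 at constant 12 °C, and PAU16 gave 348.1 and 469.2 against 137.2 and 210.9. Without array 1 of SS_12, without array 2 of SS_30, or in a fit of the 4 steady-state arrays only, neither passed. PAU7 was at −1.32 (adjusted p = 0.0866), and PAU4, PAU13 and PAU10 were at −0.30, −0.29 and −0.06. So 2 of 6 were called lower, in a comparison that called 12.2% of all genes lower and 9.97% higher.

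From 30 °C to 12 °C within the cycle, PAU10 rose by 2.03 ± 0.25 (adjusted p = 0.000122), PAU13 by 2.08 ± 0.34 (adjusted p = 0.000728) and PAU4 by 1.55 ± 0.30 (adjusted p = 0.00223) on the log2 scale, in limma's fit. PAU10, for example, gave 401.2 and 453.1 at 30 °C and 1889.6 and 1608.5 at 12 °C, while it gave 884.1 and 754.9 at constant 30 °C and 687.2 and 898.7 at constant 12 °C. PAU7, PAU3 and PAU16 were at 1.19 (adjusted p = 0.0978), 0.81 (adjusted p = 0.0554) and 0.76 (adjusted p = 0.106). Thus 3 of 6 were called higher, where 16.5% of all genes were called higher and 16.3% lower. All 3 passed under each of the 13 alternatives.

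The difference between both temperature effects passed for all 6 other genes, each with a higher value in the cycle. It was 2.52 ± 0.73 for PAU7 (limma adjusted p = 0.0431), 2.37 ± 0.48 for PAU13 (adjusted p = 0.00891), 2.21 ± 0.42 for PAU3 (adjusted p = 0.00625), 2.09 ± 0.36 for PAU10 (adjusted p = 0.00387), 2.00 ± 0.47 for PAU16 (adjusted p = 0.0175) and 1.85 ± 0.43 for PAU4 (adjusted p = 0.0159). Over all genes this test called 6.56% higher and 6.33% lower. PAU3, PAU10 and PAU13 passed under each of the 17 alternatives, while PAU4, PAU7 and PAU16 did not pass without array 1 of SS_12 or without array 2 of SS_30. PAU4 was also lost without array 2 of DTC_12, PAU16 without its array 1, and PAU7 without array 1 of DTC_12, of DTC_30 or of SS_30. In a fit of only the 4 groups compared PAU7 and PAU16 did not pass, and with a floor of 12 PAU7 did not. Of the values behind this difference, PAU10, PAU13 and PAU4 passed in the cycle and not at steady state, and PAU3 and PAU16 passed at steady state and not in the cycle.

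At 30 °C, PAU7 fell by 2.39 ± 0.51 and PAU3 by 1.39 ± 0.30 from constant to cycling cultures (limma adjusted p = 0.0478 for each), while PAU16 (−1.42, adjusted p = 0.0687), PAU10 (−0.94), PAU13 (−0.87) and PAU4 (−0.76) did not pass. This contrast called few genes at all, 0.866% lower and 0.336% higher. Without either array of SS_30 neither gene passed, and likewise without array 1 of DTC_30. Without array 2 of DTC_30 PAU7 alone passed, and with array number as a block PAU3 alone did. Neither passed with arrays centred on their median, with a floor of 12, or in a fit of both groups alone. At 12 °C, PAU13 (1.50, adjusted p = 0.0121), PAU10 (1.15, adjusted p = 0.0104) and PAU4 (1.09, adjusted p = 0.0286) rose from constant to cycling cultures, beside 8.84% of all genes higher and 9.35% lower. None of the 3 passed without array 1 of SS_12 or in a fit of both groups alone. PAU10 alone passed without array 2 of DTC_12, and PAU13 alone without array 1.

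Between both 21 °C points, PAU3 rose by 0.86 ± 0.30 from cooling to warming (limma adjusted p = 0.0412), a call lost once any of the 4 arrays was left out and under quantile normalization. PAU16 was at 0.90 (adjusted p = 0.0580), PAU7 at 0.70, PAU4 at −0.04, PAU13 at −0.29 and PAU10 at −0.57. The comparison called 15.2% of all genes higher and 18.7% lower. PAU10 gave 1069.7 and 758.1 while cooling and 628.0 and 584.0 while warming, the reverse order of PAU15 and PAU19, whose arrays did not overlap. An F test over the 6 cycle points passed for 6 of 6 other PAU genes, where 48.7% of all genes passed. PAU7 did not pass it without array 1 of DTC_30, array 2 of DTC_14.6, either array of DTC_21_increasing or array 2 of DTC_27.4.

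**Figure D3:**
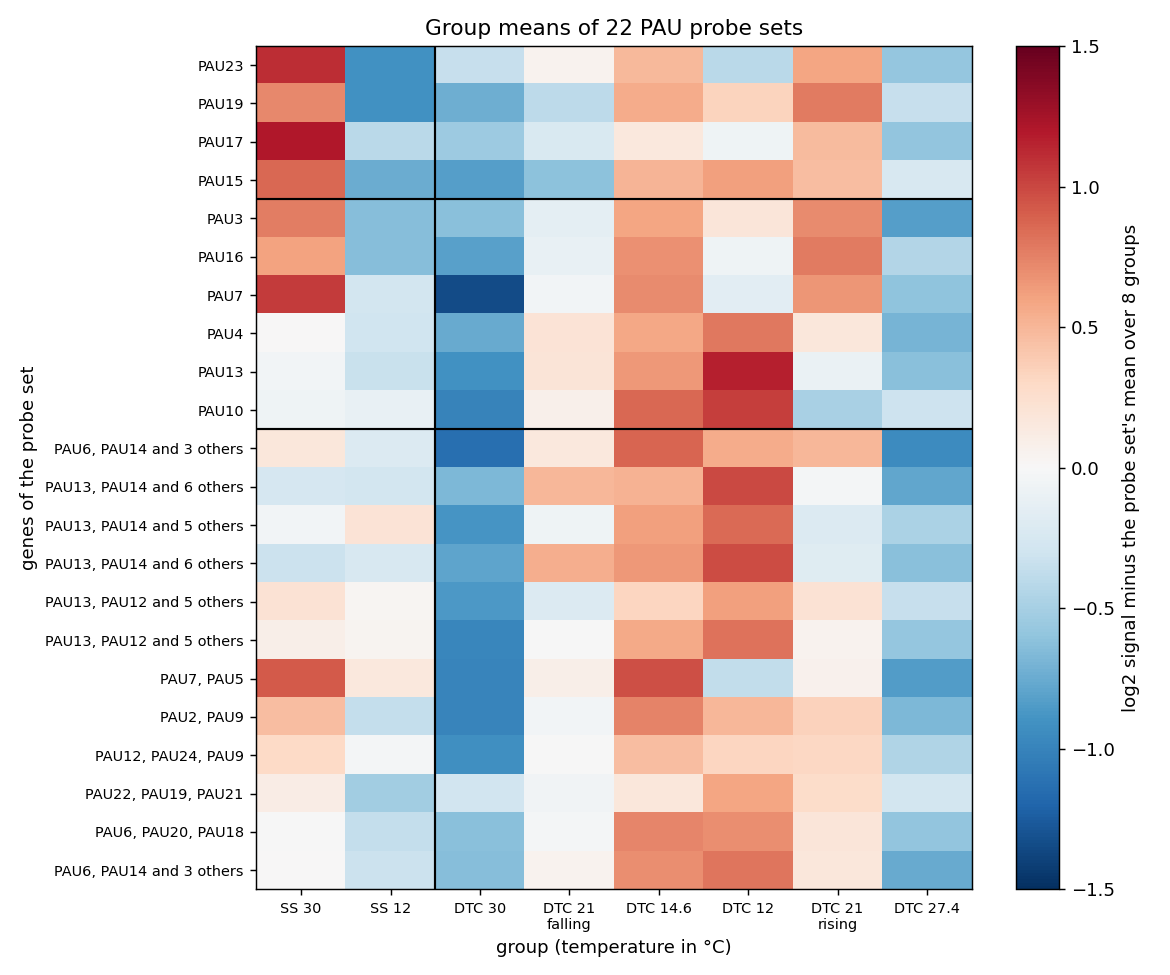
Group means of the 22 PAU probe sets, each as log2 signal minus that probe set's own mean over the 8 groups (colour scale from −1.5 to 1.5). The 4 described genes stand on top, the 6 other single-gene sets in the middle and the 12 sets of several genes below, with the steady-state groups left of the vertical line. Steady 30 °C is the reddest column for PAU15, PAU17 and PAU23 and, among the 6 others, for PAU3 and PAU7. The cycle's 12 °C is the reddest for PAU4, PAU10 and PAU13 and for most of the sets of several genes.

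The 12 probe sets that stand for several PAU genes had a weak steady-state difference, from −0.82 to 0.24 between 12 °C and 30 °C with 10 of 12 below 0. All 12 were higher at 12 °C than at 30 °C in the cycle, by 0.62 to 1.79, and all 12 were lower in the cycle than at steady state at 30 °C, by −1.91 to −0.40. At 12 °C, 11 of 12 were higher in the cycle. Their difference between both temperature effects ran from 1.39 to 2.31, which on the log2 scale overlaps with the range of the 10 single-gene sets (1.85 to 3.04). The 4 genes and these sets thus shared the direction of that difference, and they differed in how much of it lay in the steady state.

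In the R64 annotation the 4 genes share a coding length of 375 bases, as does PAU3, whereas 13 PAU genes have 363 bases, among them PAU4, PAU10 and PAU13. PAU16 has 372 bases and PAU7, a shorter gene, has 168. The 5 sets of genes with 375 bases had steady-state differences of −2.02 to −1.40. The 6 sets whose genes all have 363 bases had −0.38 to −0.06. PAU7 and PAU16, of other lengths, were at −1.32 and −1.25, nearer to the sets with 375 bases. From 30 °C to 12 °C in the cycle the sets with 363 bases had 1.31 to 2.08. Those with 375 bases had −0.05 to 1.44, so both ranges overlapped. This grouping by length was made after the values were seen and carries no test. Probes designed on more similar copies can share signal, and how much of the split follows from shared probes was not tested.

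The 4 genes do not share a position. PAU19 is the last protein-coding gene of its chromosome arm and PAU15 is followed by 1 more (YIR042C), whereas PAU17 lies 38 genes and PAU23 99 genes from the nearer end. PAU17 stands between the chaperone genes HSP104 and SSA2. HSP104, which encodes a disaggregase, fell from constant 30 °C to constant 12 °C by 0.99 (limma adjusted p = 0.0199) but also fell in the cycle by 1.27 (adjusted p = 0.00321), where PAU17 was slightly higher. It rose by 2.40 from the cooling to the warming 21 °C point (adjusted p = 3e-05). The steady-state call of HSP104 was lost without either array of SS_12 or without array 1 of SS_30. SSA2 did not pass in any of these comparisons. PAU23 stands between YLR036C and COX12, which encodes a subunit of cytochrome c oxidase. COX12 was at −0.04 between the steady states and fell by 2.27 from 30 °C to 12 °C in the cycle (adjusted p = 3.29e-05), and YLR036C was at −1.84 there (adjusted p = 0.000678). Beside PAU15, the yapsin gene YPS6 fell by 1.71 in the same contrast (adjusted p = 0.000846) and YIR042C rose by 1.12 (adjusted p = 0.0134), the latter not without array 1 of DTC_12 or array 2 of DTC_30.

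Of the COS genes, another family of chromosome ends, 7 of 11 were measured. From constant 30 °C to constant 12 °C limma called 1 higher and 1 lower (list median 0.59), COS4 at 1.14 (adjusted p = 0.0272) and COS12 at −1.68 (adjusted p = 0.00242). In the cycle it again called 1 of 7 in each direction (median 0.35), COS10 rising by 2.91 (adjusted p = 0.00239) and COS12 at −1.41. The COS10 call and both COS12 calls held in every fit that left out 1 array, whereas that of COS4 was lost without array 1 of SS_12, without array 2 of SS_30 and under quantile normalization. For the difference between both temperature effects limma called 0 of 7 COS genes, where all 6 other PAU genes passed. Of the 7 COS genes, 1 had an unadjusted p below 0.05. Between the steady states limma called 9.97% of all genes higher and 12.2% lower. The shares were 16.5% and 16.3% in the cycle, and 6.56% and 6.33% for the difference.

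The genes closest to the PAU family in kind, 7 TIR, DAN and TIP1 mannoprotein genes, split. DAN4 gave 472.9 and 421.9 at constant 30 °C and 160.5 and 278.7 at constant 12 °C, and it fell by 1.08 ± 0.24 (limma adjusted p = 0.00922). TIR2, a cold-shock mannoprotein, gave 952.5 and 1131.9 against 2594.1 and 4300.8 and rose by 1.69 ± 0.30 (adjusted p = 0.000811). With 1 of 7 higher and 1 lower, beside 9.97% and 12.2% of all genes, the list median was −0.59. In the cycle DAN1 rose from 30 °C to 12 °C by 0.90 (limma adjusted p = 0.0157), a call lost without array 1 of either group. That made 1 of 7 called higher with a median of 0.42, beside 16.5% of all genes. DAN4, at 234.9 and 247.1 against 323.0 and 326.2, was at 0.43 and did not pass. The difference between both temperature effects was 1.51 ± 0.35 for DAN4 (adjusted p = 0.0153) and −1.20 for TIR2 (adjusted p = 0.0452). DAN4 thus had the sign of the PAU genes and TIR2 the opposite one. This test called 6.56% of all genes higher and 6.33% lower. By an unadjusted p below 0.05, 3 of the 7 were higher and 1, TIR2, lower. Without array 1 of SS_30 the DAN4 call was lost in both the steady-state and the difference test, and without array 1 of SS_12 in the steady-state test.

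TIR2 further fell from constant to cycling cultures at 12 °C, by 1.01 (limma adjusted p = 0.0175), and from the cooling to the warming 21 °C point, by 0.76 (adjusted p = 0.0326). It was 1 of 7 in each, beside 9.35% and 18.7% of all genes called lower. The second call was lost whenever 1 of the 4 arrays was left out, the first without array 2 of either group. In the difference test TIR2 was lost without array 2 of SS_12, without either array of SS_30 and whenever 1 of the cycle's 4 arrays was left out. At 30 °C limma called none of the 7 between constant and cycling cultures, and 1 of 7 (DAN4, lower) had an unadjusted p below 0.05. At 12 °C 4 of 7 had one, 3 higher in the cycle and 1, TIR2, lower.

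**Figure D4:**
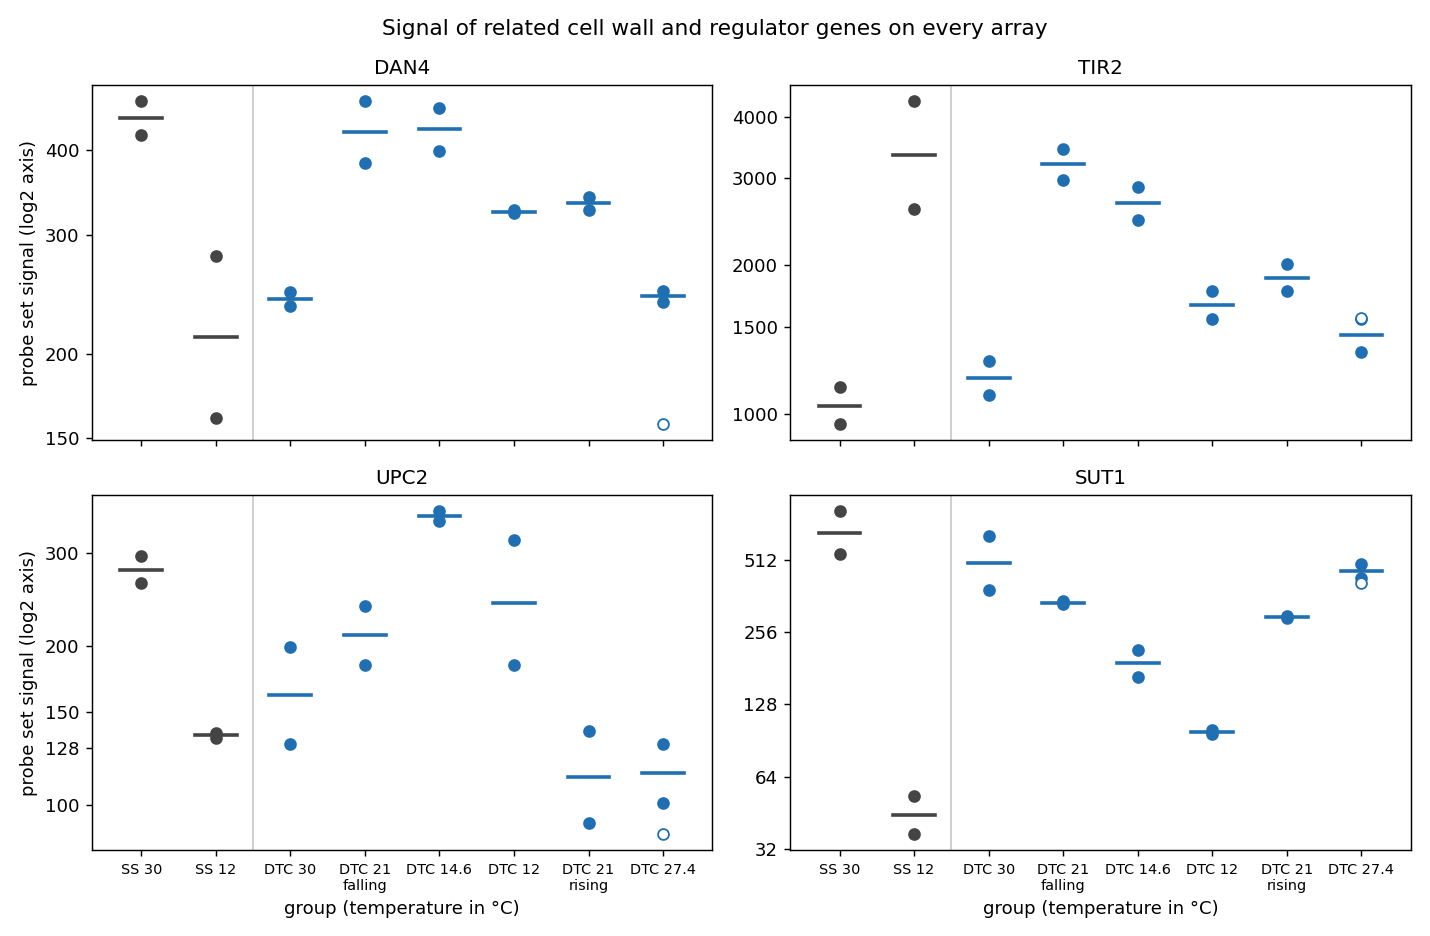
Signal of the cell wall genes DAN4 and TIR2 and of the regulators UPC2 and SUT1 on every array (log2 axis, a separate range for each gene), constant cultures in grey and the cycle in blue. Bars are the means of the log2 values of 2 arrays and the open point is the extra array at 27.4 °C. DAN4 is lowest at constant 12 °C and TIR2 is highest there. SUT1 is at its lowest at 12 °C in both kinds of culture, with lower values in the constant cultures.

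Among 11 genes for regulators of anaerobic cell wall genes, 4 fell from constant 30 °C to constant 12 °C and none rose in limma's fit (list median −1.04). That comparison called 12.2% of all genes lower and 9.97% higher. SUT1 gave 544.7 and 819.3 at 30 °C and 36.8 and 53.3 at 12 °C, and it fell by 3.91 ± 0.29 (adjusted p = 4.98e-06). MGA2, which activates the fatty acid desaturase gene, fell by 1.37 (adjusted p = 0.00994). UPC2 gave 262.5 and 295.4 against 134.2 and 137.0 and fell by 1.04 (adjusted p = 0.0311), a call that was lost whenever 1 of the 4 arrays was left out. The other gene that fell was SPT23 (−0.79, adjusted p = 0.0203). The MGA2 call was lost without array 1 of either group and the SPT23 call without either array of SS_12 or array 1 of SS_30. In the cycle SUT1 also fell by 2.34 from 30 °C to 12 °C (adjusted p = 0.00012), where it gave 647.6 and 383.6 against 96.2 and 100.4, and ROX1 fell by 1.76 (adjusted p = 0.0213), which makes 2 of 11 with a median of −0.23. The ROX1 call was lost without array 2 of either group. In this contrast limma called 16.3% of all genes lower and 16.5% higher. PAU15 and PAU19 were higher in that same contrast.

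For the difference between both temperature effects limma called 6.56% of all genes higher and 6.33% lower. The difference passed and was positive for 3 of the 11 regulators, with a list median of 0.58. They were MGA2 at 1.91 (limma adjusted p = 0.0167), UPC2 at 1.62 (adjusted p = 0.0309) and SUT1 at 1.57 (adjusted p = 0.0271). All 3 lost this call without array 1 of SS_12 and without array 2 of DTC_30. SUT1 and UPC2 also lost it without array 2 of SS_30 or of DTC_12, SUT1 without array 1 of DTC_12, UPC2 without array 2 of SS_12, and UPC2 and MGA2 without array 1 of SS_30. At 12 °C, MGA2 (1.32, adjusted p = 0.0151) and SUT1 (1.15, adjusted p = 0.0191) rose from constant to cycling cultures, though not without array 1 of SS_12 or either array of DTC_12. These were 2 of 11, beside 8.84% of all genes called higher. Between both 21 °C points limma called 18.7% of all genes lower while warming and 15.2% higher. At 21 °C, MGA2 (−1.003, adjusted p = 0.0279) and UPC2 (−0.89, adjusted p = 0.0416) were called lower while warming and SPT23 higher (0.82, adjusted p = 0.0107), the list median being −0.17. Each of these 3 calls was lost in at least 3 of the 4 fits that leave out 1 array, and those of MGA2 and UPC2 also under quantile normalization. UPC2 gave 92.5 and 138.1 there, among its lowest values, where PAU19 and the PAU3 set had some of their highest. At 30 °C limma called 0 of 11 between constant and cycling cultures, and 3 of 11 had an unadjusted p below 0.05. The messages of regulators do not measure the activity of their proteins.

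Of 7 genes for silencing at chromosome ends, SIR2, the histone deacetylase, gave 135.8 and 131.0 at constant 30 °C, 68.5 and 77.5 at constant 12 °C, 128.3 and 104.4 at the cycle's 30 °C and 160.8 and 183.5 at its 12 °C. SIR2 was therefore lowest at constant 12 °C and highest at the cycle's 12 °C. It fell by 0.87 between the steady states (limma adjusted p = 0.00868), a call lost without array 1 of either group. SIR2 was the only 1 of 7 called there, beside 12.2% of all genes lower. Its difference between both temperature effects was 1.44 (adjusted p = 0.00671), 1 of 7 with a list median of 0.24, beside 6.56% of all genes higher. This call held under each of the 17 alternatives. Within the cycle 3 of 7 were called higher at 12 °C than at 30 °C (median 0.57), RAP1, SIR2 and RIF2, beside 16.5% of all genes. The RAP1 call was lost without array 2 of DTC_12 or of DTC_30, and the SIR2 call without either array of DTC_12, without array 2 of DTC_30, under quantile normalization and with arrays centred on their median. The RIF2 set was under the background signal on all 4 arrays, and its call was lost with a floor of 12 and without array 1 of DTC_12. From the cooling to the warming 21 °C point 4 of 7 were called lower and 0 higher (median −0.55), beside 18.7% and 15.2% of all genes. Of these calls, only that of RIF1 held under each alternative (−1.595 to −1.232). The 4 described PAU genes were higher in that contrast.

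Of the 7 anaerobic marker genes, 1 was called higher at constant 12 °C than at constant 30 °C (median 0.03), beside 9.97% of all genes. It was the ergosterol gene ERG11 at 0.76 (limma adjusted p = 0.0163). That call was lost without array 1 of SS_12 or either array of SS_30 and under quantile normalization. In the cycle 2 of 7 were called higher at 12 °C, ERG11 and HEM13, and 1 lower, CYC7 (median 0.61). The shares of all genes were 16.5% higher and 16.3% lower. There the ERG11 call was lost without any 1 of the 4 arrays, that of HEM13 without either array of DTC_12 or array 2 of DTC_30, and that of CYC7 without array 2 of either group. With arrays centred on their median ERG11 and HEM13 did not pass. From the cooling to the warming 21 °C point 2 rose and 3 fell, beside 15.2% of all genes called higher and 18.7% lower. CYC7, a cytochrome c of hypoxic cells, was at 3.78 and HEM13, an enzyme of haem synthesis, at −1.99. For the difference between both temperature effects limma called 0 of 7, and 0 of 7 had an unadjusted p below 0.05.

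Over the 8 group means, the genes outside the family whose profile was most like the mean of the 4 PAU genes, of 5358 genes compared, were SPO77 (Pearson r = 0.905), CPP3 (r = 0.887), MTC2 (r = 0.876), SRL3 (r = 0.868) and DIA1 (r = 0.867). Of these CPP3 had the widest range of group means, 2.82 on the log2 scale, and MTC2 the narrowest, 0.47. Inside the family PAU3 (r = 0.953), PAU16 (r = 0.933) and PAU7 (r = 0.880) were the most like, and PAU4 (r = 0.568), PAU13 (r = 0.462) and PAU10 (r = 0.330) the least. DAN4 reached 0.776. The 8 points share cultures in the cycle, and with so few of them a high value is easily found among 5358 genes, so no p is attached.

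Over the 16 arrays, the 6 pairs among the 4 genes correlated at 0.694 to 0.935, the 24 pairs with another single-gene PAU set at 0.119 to 0.937, and the 15 pairs among those others at 0.389 to 0.931. These arrays share groups, cultures and family-type probes. Some of the likeness lay between arrays of the same group. At constant 12 °C array 2 had the higher signal in 22 of 22 PAU probe sets, by a median of 0.48 on the log2 scale. At constant 30 °C and at 14.6 °C array 2 was also the higher one, in 21 of 22 sets, by 0.44 and 0.63. At 21 °C while warming it was higher in 19 of 22, by 0.30. The share of all genes that were higher on those arrays was 51.3%, 47.0%, 48.3% and 53.2%. In the other groups the higher array led in 11 to 16 of 22 sets, and it was array 1 at 21 °C while cooling and at 27.4 °C. Whether this goes with the array number was not tested. The largest gap between 2 arrays of a group among the 4 genes was 1.76-fold, for PAU19 at 14.6 °C.

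The ratio of the ACT1 3′ to 5′ probe sets, a measure of RNA integrity and of amplification, was 1.46 and 1.82 on the constant 12 °C arrays and 1.16 to 1.55 on all others. Its part in the low PAU signal of that group was not tested.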

How the data were processed

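In all, 17 arrays were deposited. Per the labels' protocols they are Affymetrix Yeast S98 arrays, and the intensity deposited for each probe set is linear. RMA is named in the submitters' processing notes, without a version. Yet values reach 0 and every array has a mean of 240.2 after trimming 2% at each end, so the authors' exact steps are not given in the sources used here. After a floor of 1, log2 values were used. Names came from the platform annotation, updated to R64 (6504 of 6504 single-gene sets matched), which served for names, gene order and coding length only, since no build is named for the array. The brightest set stood for a gene. limma 3.58.1 (R 4.3.3) was fitted to 8 groups on 16 of 17 arrays, with Benjamini-Hochberg adjustment over 5656 genes and a threshold of 0.05, after a check on simulated data. Background was the 95th percentile of 28 blank control sets.

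The PAU genes, the gene lists and the tests were chosen with earlier results of these data known. The text names every PAU gene with its own probe set, up to 3 called genes per list and comparison, and the 5 most like genes. HSP104 and the other neighbours follow from gene order. SPT23, a further call of its list between the steady states, was named after its values were seen. No promoter or protein sequence was used here, so no motif was searched. Alternatives were quantile and median scaling, a floor of 12, filters, all probe sets, the samples in the fit, an intensity trend, a replicate block, an adjusted p below 0.01, and each array left out.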

Additional observations from a re-analysis of the deposited data

Results flagged for a closer look

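By either of 2 criteria, 9 of the 10 single-gene PAU sets were flagged for a 12 °C to 30 °C difference unlike in the cycle and at steady state. PAU23 was not flagged because its arrays overlapped in the cycle, although its difference of effects was 1.97 ± 0.48. PAU15, PAU17 and PAU19 had every array lower at constant 12 °C and every array higher at the cycle's 12 °C, with a difference of the effects of 3.0432, 2.0872 and 2.6954 on the log2 scale. For these 3 genes, which were chosen on these arrays, the difference was not tested. The arrays of 32.9% of all genes separated in the lower direction at steady state, and those of 31.9% in the higher direction in the cycle. The share that did both was not counted. For the other 6 genes limma's interaction term passed an adjusted p of 0.05, with differences of 2.516 (PAU7), 2.3714 (PAU13), 2.2082 (PAU3), 2.0877 (PAU10), 2.0038 (PAU16) and 1.8507 (PAU4). The same term called 6.56% of all genes higher and 6.33% lower. Groups of 2 arrays are too small for a test of single outlying arrays.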

How the results depend on the processing

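Counts below cover all 10 single-gene PAU sets unless another number is given, and medians cover only the 4 genes chosen on these arrays. Those 4 are also among the 10, and for them a call or its loss is no test and no evidence of stability. The share of all genes called is given above for the main fit only. Whether a changed PAU count goes with a changed total over all genes was not tested, so nothing about the family is read from these counts. For the other 6 alone, leaving out 1 array gave 0 to 2 calls between the steady states (from 2), 3 to 4 for the cycle (from 3), 0 to 1 at 30 °C (from 2), 0 to 3 at 12 °C (from 3), 0 at 21 °C (from 1), 3 to 6 for the difference (from 6) and 5 to 6 in the F test (from 6). The replicate block gave these 6 genes 2, 4, 1, 3, 1, 6 and 6 calls in that order. Fitting all probe sets without choosing 1 per gene changed the base from 10 sets to all 22 PAU sets, with the 4 chosen genes in both. The count went from 10 of 10 to 16 of 22 for the difference of the temperature effects. In the F test it went from 10 of 10 to 17 of 22. For the cycle's 12 °C minus 30 °C it went from 5 of 10 to 15 of 22. For cycle minus constant it went from 5 of 10 to 10 of 22 at 12 °C and from 5 of 10 to 2 of 22 at 30 °C. The counts that follow are again over the 10 sets. An adjusted p below 0.01 left 6, 1 and 0 for the difference of effects, 12 °C and 30 °C. Fitting only the groups compared left 0 at 12 °C, 0 at 30 °C and 5 (from 3) at 21 °C; median centring gave 2 at 30 °C and 5 at 21 °C, and a floor of 12 gave 3 at 30 °C. Leaving out 1 array gave 6 to 10 for the difference, 0 to 5 at 12 °C, 0 to 2 at 30 °C, 0 to 2 at 21 °C and 4 to 6 (from 6) between the steady states. In place of the median log2 difference of the 4 chosen genes, the mean over all 22 PAU sets gave 1.976 instead of 2.391 for the difference of effects. The median of the 4 was 2.096 there with all probe sets. The mean gave 1.294 instead of 0.7769 for the cycle and 0.2652 instead of 0.8937 at 21 °C. It gave −1.16 instead of −1.573 at 30 °C and −0.6823 instead of −1.614 at steady state. Leaving out 1 array, the medians of the 4 genes were 2.126 to 2.657 for the difference and 0.5626 to 1.19 at 12 °C (from 0.8765). They were −1.877 to −1.326 at 30 °C and −1.902 to −1.35 at steady state. None of these medians changed sign. Of 134 values for members, 1 changed sign: PAU23 between the cycle's 12 °C and 30 °C, −0.1346 to 0.03246. For single named genes past the test, recomputed under the same settings as an addition chosen after seeing the data, 897 of 1193 values kept direction and call and 296 lost the call. The calls of DAN4, ROX1, SUT1, HSP104 and COS4 were among those lost when only the groups compared were fitted. Fewer arrays or genes leave fewer degrees of freedom or another adjustment; other causes were not tested. Whether array numbers pair the cultures could not be settled. The gap between arrays 1 and 2 of a group, taken over all genes, correlated at −0.400 to 0.491 in 28 pairs of groups (7 over 0.1). These pairs include the steady-state groups, which were other cultures than those of the cycle. Over all 10 sets the fit with the replicate block gave 6 between the steady states, 6 for the cycle, 5 at 30 °C, 5 at 12 °C, 3 at 21 °C and 10 for the difference. Dim sets near the background signal of 10.5, such as that of PAU19, PAU21 and PAU22, have the least reliable differences.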
